A study of Mus musculus with 8 samples.

Results

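The comparison of donor CD4 T cells without STAT3 with wild-type (WT) donor CD4 T cells in the spleen rested on 4 of the 8 libraries of the series, 2 for each genotype, and covered every gene that could be tested (12428 of 25078 in the deposited table). Recipients were lethally irradiated BALB/c mice given T cell-depleted bone marrow from WT C57BL/6 donors together with T cells from C57BL/6 donors. The T cell donors were either WT or STAT3 fl/fl mice with CD4Cre (STAT3KO), in which a recombinase under Cd4 regulatory sequences removes a part of Stat3 in T cells, so that CD4 and CD8 T cells both lack it. Donor CD4 T cells were sorted from recipient spleens on day 6 after hematopoietic cell transplantation. In both groups the graft bone marrow was WT, and the host kept its own STAT3. Each library pooled cells of several recipients, so that the replicates were pools, no library shows a single animal, and the p-values measure the spread between pools.

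STAT3 is a transcription factor that cytokine receptors such as those for IL-6, IL-10, IL-21 and IL-23 activate through JAK kinases. In CD4 T cells it is known for driving the IL-17-producing (Th17) and the follicular helper (Tfh) programmes and for inducing its own feedback inhibitor, Socs3. Alloreactive donor CD4 T cells, which recognise the host as foreign, divide and turn into effector cells in the spleen before they enter the tissues that graft-versus-host disease damages. The paper describes recipients of WT T cells as having graft-versus-host disease and those of STAT3KO T cells as having none or a mild form. Donor genotype and host disease state thus differed together between the groups, and their effects cannot be told apart here.

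The 4 libraries held between 20171396 and 21954733 counts, and values given as CPM are counts scaled to a common library size after TMM normalisation, 1 value per library, unless stated. T cell marker genes summed to 7762 and 8702 CPM by column total in WT CD4 and to 7478 and 8545 CPM in STAT3KO CD4 libraries, while Cd8a and Cd8b1 together had between 18.0 and 51.9 CPM. Marker genes of macrophages and monocytes summed to 60.7 and 101 CPM in WT and to 103 and 183 CPM in STAT3KO libraries. Of these 11 genes, Itgam alone was called, and it had 36.9 and 22.2 CPM in WT and 80.3 and 86.0 CPM in STAT3KO libraries. Marker genes of B cells summed to 107 and 96.1 CPM in WT and to 149 and 170 CPM in STAT3KO libraries, almost all of it Cd22. Of these 7 genes, 2 were tested, Cd79b alone was called (higher), and 1 was at 0 in every CD4 library. Marker lists of plasma cells, neutrophils, dendritic cells, NK cells, erythroid cells, platelets, hepatocytes and pancreatic acinar cells each summed to between 0.0456 and 29.7 CPM. No tested gene of these lists was called, but many members were too scarce to be tested. Tested were 3 of 3 plasma cell, 7 of 9 neutrophil, 2 of 6 dendritic cell and 3 of 7 NK cell markers. For erythroid cells, platelets, hepatocytes and pancreatic acinar cells, 2 of 7, 2 of 4, 0 of 5 and 4 of 6 were tested. Of the 10 T cell markers Thy1 was called, with a higher level in STAT3KO libraries. The ribosomal RNA precursor Rn45s took 2.16% and 0.377% of the counts in WT and 2.01% and 1.03% in STAT3KO libraries. The part of these other transcripts in the results below was not tested. In such bulk libraries, fewer cells of a type and less RNA per cell cannot be told apart.

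Between the genotypes 1444 of the 12428 genes tested (11.6%) were called, of which 813 (6.54%) were higher and 631 (5.08%) lower in STAT3KO CD4 T cells. A call here and below means a Benjamini-Hochberg adjusted p under 0.05 in the quasi-likelihood test of edgeR. Stat3 itself (chromosome 11, 100886806 to 100939540) had 436 and 428 CPM in WT and 138 and 141 CPM in STAT3KO libraries (a log2 fold change of -1.63 with SE 0.12, adjusted p 0.000753 in edgeR), and the STAT3KO mean was 32.4% of the WT mean. These counts cover the whole gene, and the deleted part was not examined apart. The groups did not overlap for any of the 1444 called genes, against 53.5% of all genes tested. Genes called lower included the larger changes: 115 of 631 fell more than 4-fold and 45 more than 8-fold, whereas 45 of 813 rose more than 4-fold and 8 more than 8-fold. The median log2 fold change was 0.90 among genes called higher, -0.99 among genes called lower and 0.02 over all genes. The number of calls depended on each library. It was 1116 if WT CD4 replicate 1 was left out, 565 if WT CD4 replicate 2 was, 414 if STAT3KO CD4 replicate 1 was and 412 if STAT3KO CD4 replicate 2 was. No called gene changed direction in any of these fits. Since the groups of each called gene did not overlap, leaving out 1 library could hardly reverse it. The same 4 libraries are left out in this order wherever 4 counts are given below.

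**Figure D1:**
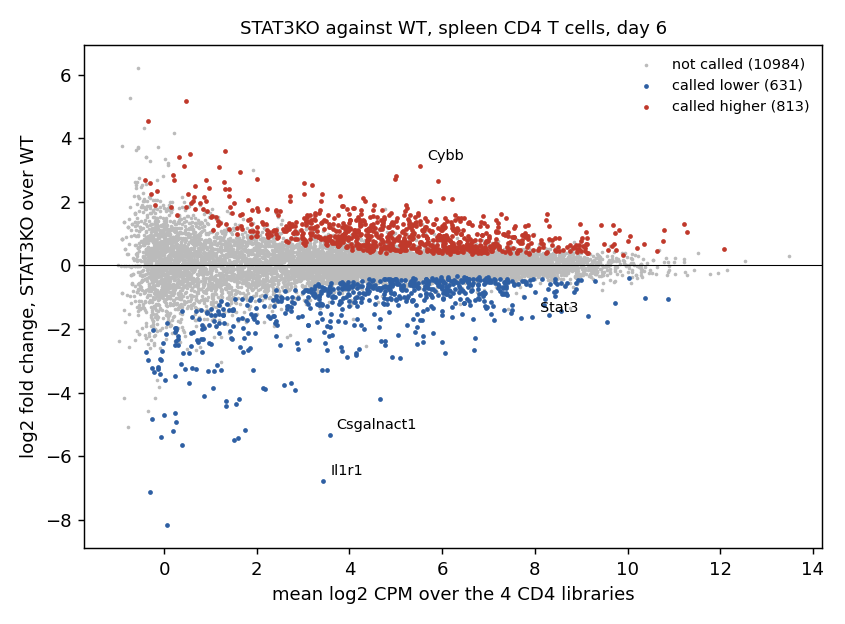
Log2 fold change of STAT3KO over WT CD4 T cells (vertical axis) against the mean log2 CPM over the 4 CD4 libraries (horizontal axis), 1 point for each of the 12428 genes tested. Genes called higher (813) are red, genes called lower (631) blue and the others grey. Among called genes the widest departures, Il1r1 and Csgalnact1 among them, lie on the lower side.

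Ranked by abundance and split into 4 groups of 3107, the least abundant genes had the smallest share called (7.31%), and the next groups had 15.2%, 12.6% and 11.3%. In the donor CD8 T cell libraries of the series, where Stat3 was lower as well (log2 fold change -1.72), 757 of the 813 genes called higher in CD4 T cells (93.1%) and 588 of the 631 called lower (93.2%) had a fold change of the same sign, against 74.1% of all genes tested. When the CD8 effect was set against the CD4 effect by an interaction term (edgeR quasi-likelihood), 0 of 12428 genes were called (0%), with 982 genes at an unadjusted p under 0.05. Other tools called some: DESeq2 called 188 genes and the edgeR likelihood-ratio test 137. No gene below is therefore described as particular to CD4 T cells.

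**Figure D2:**
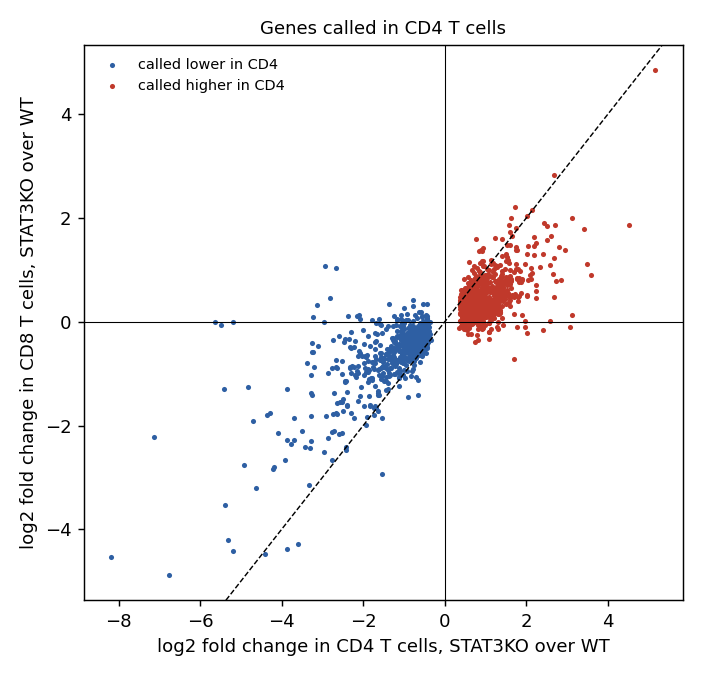
Log2 fold change of STAT3KO over WT in CD8 T cells (vertical axis) against that in CD4 T cells (horizontal axis) for the 1444 genes called in CD4 T cells, with a dashed line where both are equal. Most points lie in the quadrants of shared sign (93.1% of genes called higher and 93.2% of those called lower).

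STAT proteins bind a palindrome whose core is TTC, any 3 bases, then GAA (TTCNNNGAA, which reads the same on both strands). It was searched in the 250 bases before each RefSeq start site, of which the table (GRCm38.p6) held at least 1 for 9838 of the tested genes. The core was found for 33 of 509 genes called lower (6.48%), 57 of 646 called higher (8.82%) and 709 of all 9838 (7.21%), and in 7.02% of all 32851 windows of the table. The share among called genes was thus close to that among all genes. The matches given here are those in the promoters of Bcl6 and Socs3, known STAT3 targets that fell, of Fas and Il1r2, receptor genes that fell, and of Igtp, Irgm2, Gbp7 and Ncf1, interferon- or phagocyte-type genes that rose. Each runs 5′ to 3′ on the gene's strand, with the core in capitals. The 4 Bcl6 windows belong to more than 1 start site.
Bcl6 (chr16:23981353-23981381, minus strand): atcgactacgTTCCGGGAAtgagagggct
Bcl6 (chr16:23981387-23981415, minus strand): ggcaggagtgTTCTGTGAAatccttagag
Bcl6 (chr16:23981433-23981461, minus strand): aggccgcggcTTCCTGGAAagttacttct
Bcl6 (chr16:23988952-23988980, minus strand): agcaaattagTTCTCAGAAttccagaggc
Socs3 (chr11:117969502-117969530, minus strand): gaaaccagccTTCTTAGAAgggagggggg
Fas (chr19:34290556-34290584, plus strand): tcaaagcgatTTCTGGGAAgacctgaata
Il1r2 (chr1:40085972-40086000, plus strand): cgggtgctttTTCAAGGAActtccgacta
Igtp (chr11:58199501-58199529, plus strand): aactagccatTTCTAGGAActgaaactga
Irgm2 (chr11:58214892-58214920, plus strand): aactagccatTTCCAGGAActgaaactga
Gbp7 (chr3:142530220-142530248, plus strand): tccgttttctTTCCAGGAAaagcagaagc
Gbp7 (chr3:142530239-142530267, plus strand): aagcagaagcTTCTCAGAAagtcagcaca
Ncf1 (chr5:134229695-134229723, minus strand): agctcaaaaaTTCTCAGAAagtgaaagac

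Among called genes whose log2 CPM averaged 3 or more, the deepest falls were near-complete. Il1r1 (chromosome 1, 40225080 to 40316177), the signalling receptor for IL-1, had 78.5 and 101 CPM in WT and 0.850 and 0.777 CPM in STAT3KO libraries (a log2 fold change of -6.78 with SE 0.36, adjusted p 0.000325 in edgeR). Csgalnact1 (chromosome 8, 68356781 to 68735146), which starts chondroitin sulfate chains, had 60.5 and 71.7 CPM in WT and 1.40 and 1.87 CPM in STAT3KO libraries (a log2 fold change of -5.32 with SE 0.29, adjusted p 0.000325 in edgeR). B4galnt4 (chromosome 7, 141060978 to 141072400), a glycosyltransferase, had 106 and 105 CPM in WT and 7.15 and 4.25 CPM in STAT3KO libraries (a log2 fold change of -4.21 with SE 0.34, adjusted p 0.000968 in edgeR). For these genes both STAT3KO values were far below both WT values. Igfbp4, a binding protein for insulin-like growth factors, fell from 20.1 and 43.0 to 3.40 and 3.06 CPM, and Esm1, a secreted proteoglycan, from 24.5 and 42.9 to 3.20 and 3.70 CPM. The 15 genes with the lowest log2 fold changes also included Acpp (-2.92), Fam20a (-2.87), Matk (-2.87), Cebpa (-2.81), Stom (-2.77), Sostdc1 (-2.77), Egln3 (-2.68), Tox2 (-2.65) and Nav2 (-2.64). Among them are an acid phosphatase (Acpp), a kinase that restrains Src-family kinases (Matk), a myeloid transcription factor (Cebpa), an oxygen-sensing prolyl hydroxylase (Egln3) and a transcription factor of Tfh cells (Tox2). Cebpa had 56.3 and 35.3 CPM in WT and 5.10 and 7.95 CPM in STAT3KO libraries (edgeR adjusted p 0.00268), while its log2 fold change in CD8 T cells was 0.45 (edgeR adjusted p 0.626). Of these 15 genes, 14 were called whichever CD4 library was left out, and Igfbp4 was not called without either STAT3KO CD4 library.

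**Figure D3:**
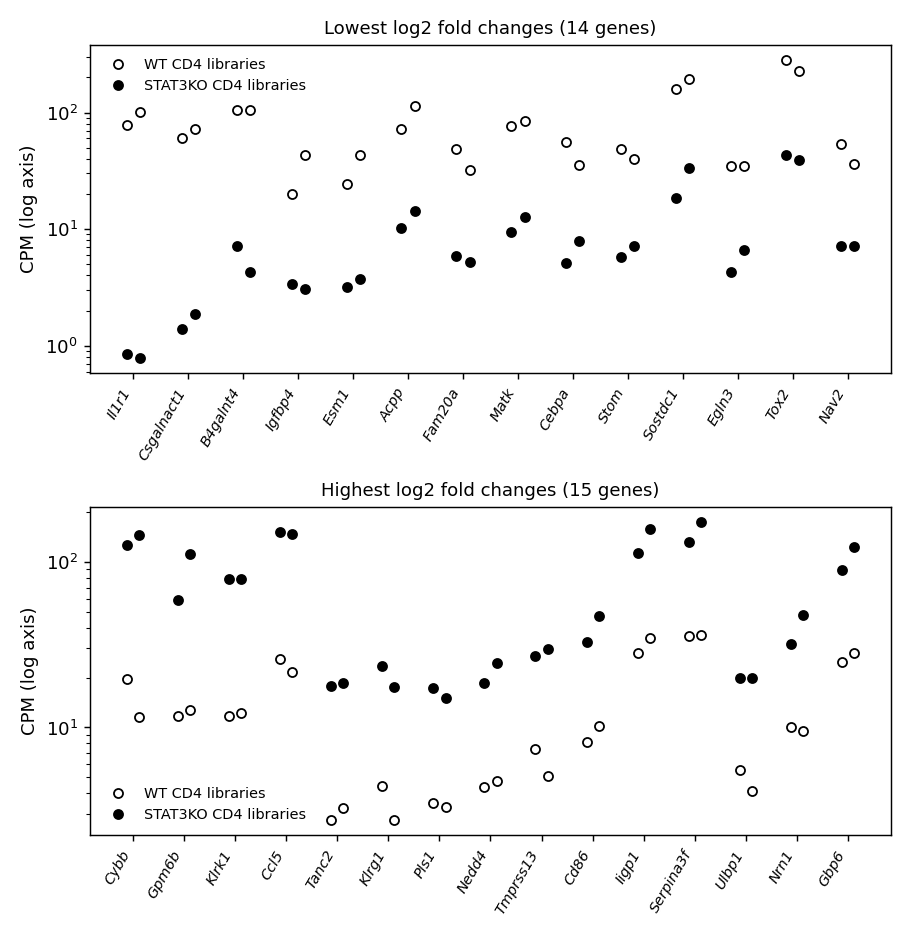
CPM per library on a log axis for the called genes averaging 3 or more on the log2 CPM scale with the lowest (upper panel, 14 genes) and the highest (lower panel, 15 genes) log2 fold changes, with open circles for the 2 WT CD4 and filled circles for the 2 STAT3KO CD4 libraries. Il1r1 is the only gene of these with both STAT3KO values under 1 CPM. The 2 groups do not overlap for any gene shown, as the rule for choosing them required.

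Cybb led the 15 genes with the highest log2 fold changes, chosen by the same measure. Cybb (chromosome X, 9435254 to 9469324), the catalytic subunit of the phagocyte NADPH oxidase, had 19.5 and 11.6 CPM in WT and 127 and 145 CPM in STAT3KO libraries (a log2 fold change of 3.13 with SE 0.48, adjusted p 0.00711 in edgeR). Klrk1 (NKG2D), an activating receptor of NK and cytotoxic T cells, rose from 11.7 and 12.2 to 78.3 and 79.2 CPM (log2 fold change 2.72 with SE 0.16, adjusted p 0.000563 in edgeR). Ulbp1, which encodes a ligand of that receptor, rose from 5.54 and 4.16 to 19.8 and 19.9 CPM (log2 fold change 2.04 with SE 0.18, adjusted p 0.00114 in edgeR). The chemokine Ccl5 rose from 25.9 and 21.5 to 151 and 147 CPM (log2 fold change 2.65 with SE 0.12, adjusted p 0.000325 in edgeR), and Klrg1, an inhibitory receptor of effector cells, from 4.44 and 2.74 to 23.6 and 17.6 CPM (log2 fold change 2.52 with SE 0.40, adjusted p 0.00812 in edgeR). Cd86, a costimulatory ligand best known from antigen-presenting cells, rose from 8.18 and 10.2 to 32.9 and 46.9 CPM (log2 fold change 2.12 with SE 0.24, adjusted p 0.00241 in edgeR). The others of the 15 were Gpm6b (2.80), Tanc2 (2.60), the actin bundler Pls1 (2.25), the ubiquitin ligase Nedd4 (2.24), Tmprss13 (2.19), the interferon-induced GTPases Iigp1 (2.11) and Gbp6 (2.02), Serpina3f (2.10) and Nrn1 (2.02). Klrg1 was not called without WT CD4 replicate 2 or without STAT3KO CD4 replicate 1, and Iigp1 and Serpina3f were not called without any 1 of the 4 libraries. Cybb, Cd86 and Itgam are also expressed by macrophages. The sums of the macrophage and monocyte markers are given above, and whether macrophage transcripts contributed to these rises was not tested.

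Ranked by the change in CPM rather than by fold, the rises were led by Ahnak, Itgb1, Tmsb4x, Itga4, Serinc3, Plek, Mki67, Il2rb, Serpinb6b and S100a10. Ahnak, a giant scaffold protein of effector and memory T cells, had 1649 and 1424 CPM in WT and 3374 and 4114 CPM in STAT3KO libraries (a log2 fold change of 1.29 with SE 0.14, adjusted p 0.00217 in edgeR). The integrin chains Itgb1 (β1) and Itga4 (α4), which together form the receptor VLA-4 that binds inflamed endothelium, were both called higher. Itgb1 had 1793 and 1693 CPM in WT and 3604 and 3564 CPM in STAT3KO libraries (a log2 fold change of 1.04 with SE 0.12, adjusted p 0.00275 in edgeR). Itga4 had 1291 and 1124 CPM in WT and 2634 and 2622 CPM in STAT3KO libraries (a log2 fold change of 1.12 with SE 0.09, adjusted p 0.000837 in edgeR). Il2rb, the β chain shared by the receptors for IL-2 and IL-15, rose from 822 and 735 to 1434 and 1484 CPM (log2 fold change 0.91 with SE 0.10, adjusted p 0.00217 in edgeR). The falls by this measure were led by Icos, Tcf7, Hif1a, Btla, Ssh2, Satb1, Trib2, Ablim1, Stat3 and Map4k4. Tcf7 (TCF-1), a transcription factor that keeps T cells stem-like and supports Tfh cells, had 1452 and 1345 CPM in WT and 420.0 and 389 CPM in STAT3KO libraries (a log2 fold change of -1.79 with SE 0.17, adjusted p 0.00137 in edgeR). Satb1, a chromatin organiser of T cells, fell from 626 and 615 to 246 and 209.5 CPM (log2 fold change -1.45 with SE 0.12, adjusted p 0.00101 in edgeR). Hif1a, the hypoxia-induced regulator of glycolysis, fell from 1822 and 1978 to 921 and 949 CPM (log2 fold change -1.02 with SE 0.12, adjusted p 0.00269 in edgeR). Icos, a costimulatory receptor of Tfh cells, had 2326 and 3162 CPM in WT and 1235 and 1399 CPM in STAT3KO libraries (a log2 fold change of -1.06 with SE 0.20, adjusted p 0.0153 in edgeR). The calls of Icos, Mki67 and Ablim1 did not hold without WT CD4 replicate 2 or without either STAT3KO CD4 library. Those of Btla and Map4k4 did not hold without either STAT3KO CD4 library, that of Ssh2 without STAT3KO CD4 replicate 1 and that of Serinc3 without STAT3KO CD4 replicate 2.

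Known targets of STAT3 and its feedback genes were mostly lower: 12 of 22 tested were called lower and 1 higher. In this list 59.1% were called against 11.6% over all genes, and the median log2 fold change was -0.64 against 0.02. Without 1 library in turn, 10, 9, 7 and 6 were called lower. Socs3, which encodes the feedback inhibitor of IL-6-type receptors, had 369 and 367 CPM in WT and 98.6 and 136 CPM in STAT3KO libraries (a log2 fold change of -1.65 with SE 0.23, adjusted p 0.00474 in edgeR). Bcl3, an atypical IκB protein that acts in the nucleus, had 71.2 and 56.5 CPM in WT and 12.1 and 10.2 CPM in STAT3KO libraries (a log2 fold change of -2.52 with SE 0.17, adjusted p 0.000729 in edgeR). Lif, an IL-6-family cytokine, fell from 189 and 112 to 35.7 and 20.8 CPM (log2 fold change -2.41 with SE 0.33, adjusted p 0.00472 in edgeR). The groups of these genes did not overlap, as in every called gene, and their calls held whichever library was left out. The others called lower were Bcl6 (-2.21), Tent5c (-1.40), Il4ra (-1.07), Hif1a (-1.02), Socs1 (-0.87), the survival kinases Pim2 (-0.76) and Pim1 (-0.73), Il21 (-0.70) and Batf (-0.58). Prdm1 (Blimp-1), a repressor that opposes Bcl6 in CD4 T cells, was the member called higher, at 81.6 and 55.7 CPM in WT and 140.2 and 122 CPM in STAT3KO libraries (a log2 fold change of 0.94 with SE 0.19, adjusted p 0.0192 in edgeR). The calls of Socs1 and Pim1 were lost without any 1 of the 4 libraries. Those of Batf and Prdm1 were lost without WT CD4 replicate 2 or either STAT3KO CD4 library, that of Il4ra without either STAT3KO CD4 library, that of Tent5c without STAT3KO CD4 replicate 1, and those of Pim2 and Il21 without STAT3KO CD4 replicate 2.

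Cytokine receptors, JAKs and STATs moved in both directions, with 9 of 34 called lower and 4 higher. In all, 38.2% were called, against 11.6% over all genes, and the median log2 fold change was 0.04. In the fits that each omitted 1 library, 7, 6, 3 and 4 were called lower and 3, 2, 2 and 2 higher. On the lower side stood receptors for IL-1 (Il1r1, above, and the decoy receptor Il1r2), IL-23 (Il23r), IL-6 (Il6ra), IL-4 (Il4ra), IL-21 (Il21r) and type I interferon (Ifnar2), together with Jak3 and Stat5a. Il23r, which sustains Th17 cells, had 5.84 and 8.27 CPM in WT and 0.350 and 0.366 CPM in STAT3KO libraries (a log2 fold change of -4.28 with SE 0.52, adjusted p 0.00310 in edgeR). Il1r2 fell from 25.2 and 41.8 to 4.25 and 6.95 CPM (log2 fold change -2.58 with SE 0.43, adjusted p 0.0104 in edgeR). Stat5a, which transmits IL-2 signals, fell from 185 and 209 to 81.3 and 77.3 CPM (log2 fold change -1.32 with SE 0.10, adjusted p 0.000806 in edgeR). Annotated exons of Stat5a share 72 bases (1.01% of its exon bases) with Stat3 on the opposite strand, and whether counting used strand is not given in the sources used here. Among the higher ones were Il10ra, the receptor through which IL-10 activates STAT3, from 97.4 and 78.4 to 285 and 256 CPM (log2 fold change 1.62 with SE 0.15, adjusted p 0.00142 in edgeR), Il2rb and Il15ra (0.55). The signalling chain Il6st was not called, with 219 and 240.4 CPM in WT and 164 and 191 CPM in STAT3KO libraries. The calls of Il1r1, Il23r, Stat5a, Il10ra and Il2rb held without each library, and Il6ra and Il15ra were called in none of these fits. Jak3 was called in that without WT CD4 replicate 2 alone, Il1r2 was lost without WT CD4 replicate 2 or STAT3KO CD4 replicate 1, Ifnar2 without WT CD4 replicate 2 or either STAT3KO CD4 library, and Il21r and Il4ra without either STAT3KO CD4 library.

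Of 20 genes of the Tfh programme tested, 11 were called lower and 0 higher (55% called, against 11.6% over all genes). The median log2 fold change was -1.01. When 1 library at a time was omitted, the counts were 8, 8, 6 and 6. Bcl6, the repressor that defines Tfh cells, had 114 and 90.3 CPM in WT and 21.1 and 22.99 CPM in STAT3KO libraries (a log2 fold change of -2.21 with SE 0.24, adjusted p 0.00217 in edgeR). Tox2, a transcription factor that acts with Bcl6, had 284 and 228 CPM in WT and 42.9 and 38.9 CPM in STAT3KO libraries (a log2 fold change of -2.65 with SE 0.18, adjusted p 0.000729 in edgeR). Cxcr5, the chemokine receptor that brings Tfh cells to B cell follicles, had 253 and 247 CPM in WT and 64.0 and 89.5 CPM in STAT3KO libraries (a log2 fold change of -1.70 with SE 0.24, adjusted p 0.00496 in edgeR). The calls of these 3 genes held without each library. Il21, the signature cytokine of Tfh cells, fell less, from 222 and 185 to 131 and 119.7 CPM (log2 fold change -0.70 with SE 0.12, adjusted p 0.0107 in edgeR). Sostdc1, a secreted inhibitor made by Tfh-type cells, fell from 160.1 and 195 to 18.6 and 33.5 CPM (log2 fold change -2.77 with SE 0.35, adjusted p 0.00356 in edgeR). Tcf7, Btla, Icos, Il4, Pou2af1 and Ascl2 completed the members called lower. Ascl2, which induces Cxcr5, had 24 and 16 counts in WT and 2 and 3 in STAT3KO libraries, a ratio of 8.13 (95% counting interval 3.21 to 26.4). Il21 was not called without STAT3KO CD4 replicate 2, Btla without either STAT3KO CD4 library, Icos without either of those or WT CD4 replicate 2, and Ascl2 without any 1 library. Il4 was called in the fit without WT CD4 replicate 2 and Pou2af1 in that without STAT3KO CD4 replicate 2, and in no other of these fits. The receptor Pdcd1 (PD-1), present on Tfh and exhausted cells, had 340.4 and 233 CPM in WT and 314 and 254 CPM in STAT3KO libraries and was not called (edgeR adjusted p 0.979).

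Of 12 Th17 genes tested, 6 were called lower and 0 higher (50% called, against 11.6% over all genes). The median log2 fold change was -1.87 (-1.93 with the genes at or under 3 counts set to that limit). When each library was omitted in turn, the counts were 5, 4, 2 and 3. Il1r1 and Il23r, given above, were the Th17-linked receptors among them. The cytokines were scarce in WT and scarcer in STAT3KO libraries. Il17a had 26 and 25 counts in WT and 0 and 1 in STAT3KO libraries (ratio 51.8, 95% counting interval 8.89 to 2087), and Il22 had 74 and 21 counts in WT and 1 and 2 in STAT3KO libraries (ratio 32.2, interval 10.7 to 159). Il17f had 9 and 16 counts in WT and 2 and 1 in STAT3KO libraries. These intervals cover counting error only. Without 1 library in turn, Il17f was called in none of the fits, Il17a in that without WT CD4 replicate 1 alone and Il22 in those with both STAT3KO CD4 libraries. Rora, a nuclear receptor, was not called at 226 and 226 CPM in WT and 186 and 161 CPM in STAT3KO libraries, nor was Ahr (87.7 and 48.3 against 46.4 and 52.6 CPM). In the Th2 list, 22.2% of 9 genes tested were called. Il4 was called lower (9.68 and 3.40 against 1.40 and 0.777 CPM) and Il10 higher. Il10, an anti-inflammatory cytokine that several helper subsets make, had 64.0 and 38.2 CPM in WT and 139.5 and 149.8 CPM in STAT3KO libraries (a log2 fold change of 1.50 with SE 0.29, adjusted p 0.0178 in edgeR), and of the fits that left out 1 CD4 library it was called in that without WT CD4 replicate 1 alone. Of 14 regulatory T cell genes, Ikzf4 alone was called (lower, log2 fold change -1.42), a share of 7.14% against 11.6% over all genes. Foxp3 had 12.2 and 10.3 CPM in WT and 12.8 and 15.9 CPM in STAT3KO libraries.

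Transcription factors were examined as a group because they mark helper lineages. Of 31 lineage factors, 7 were called lower and 5 higher (38.7% called, against 11.6% over all genes, median log2 fold change 0.03). The lower ones included Tox2, Bcl6, Tcf7, Ikzf4, Zeb2 and Lef1, and the higher ones were Eomes, Zbtb32, Hopx, Prdm1 and Ikzf3. Eomes, the T-box factor of cytotoxic and memory cells, rose from 3.74 and 2.27 to 13.5 and 11.01 CPM (log2 fold change 2.03 with SE 0.29, adjusted p 0.00551 in edgeR), and Hopx from 79.4 and 86.3 to 151 and 168 CPM (log2 fold change 0.95 with SE 0.10, adjusted p 0.00181 in edgeR). Tbx21 (T-bet), the Th1 factor, had 112 and 46.7 CPM in WT and 183 and 132 CPM in STAT3KO libraries, and was not called (edgeR adjusted p 0.233). Activation-induced factors were largely not called, with 0 of 28 higher and 2 lower (Bcl3 and Batf). Their share called was 7.14%, against 11.6% over all genes, and their median log2 fold change was -0.32. Among naive and memory genes, 6 of 19 were called lower and 1 higher (36.8% called). These were Igfbp4, Tcf7, Satb1, Bcl2, Lef1 and Actn1 on the lower and Klf3 on the higher side. In the fits that each omitted 1 library, 4, 4, 4 and 5 lineage factors were called lower and 5, 4, 3 and 3 higher, and 5, 3, 3 and 2 naive and memory genes lower. Klf3, Actn1 and Ikzf4 were called in none of these fits, Zeb2 in that without STAT3KO CD4 replicate 2 alone and Lef1 in that without STAT3KO CD4 replicate 1 alone, and Zbtb32 was lost without STAT3KO CD4 replicate 2 and Ikzf3 without STAT3KO CD4 replicate 1.

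**Figure D4:**
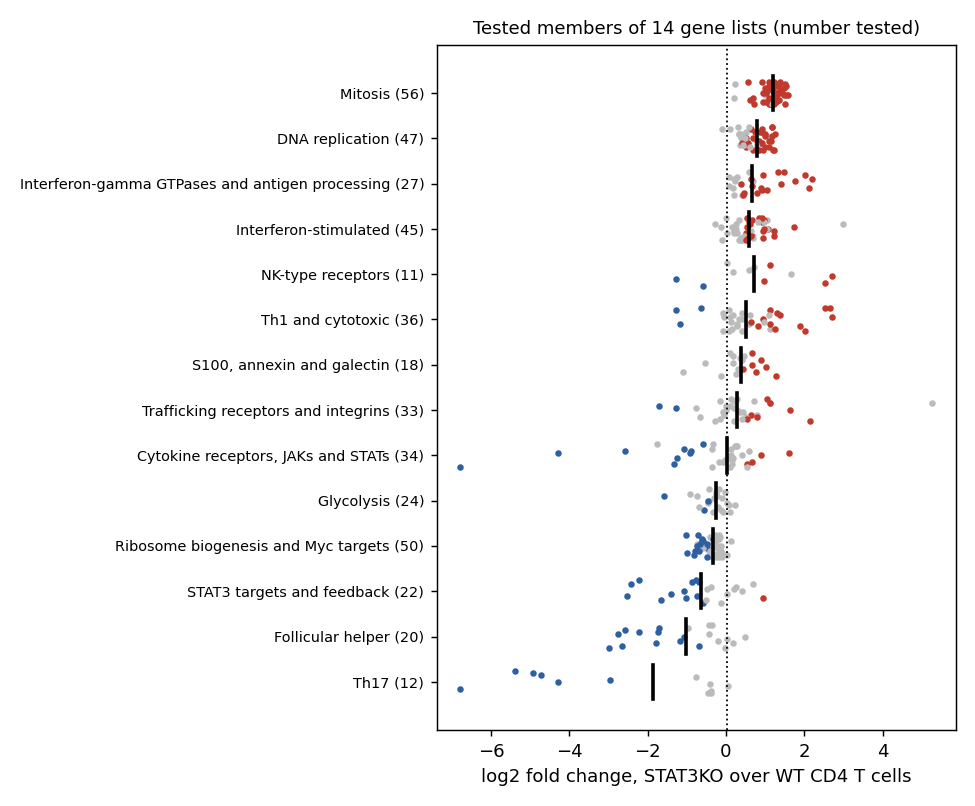
Log2 fold change of STAT3KO over WT CD4 T cells (horizontal axis) for each tested member of 14 gene lists (rows), with red points for genes called higher, blue for genes called lower and grey for genes not called. Black bars are list medians and the dotted line is the median of all genes tested (0.02). The mitosis list (median 1.20) lies wholly above 0, and the Tfh list (-1.01) and the Th17 list (-1.87) lie mostly below it.

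Of 36 genes of Th1 and cytotoxic function, 13 were called higher, 3 were called lower and 20 were not called. The share called was 44.4%, against 11.6% over all genes, and the median log2 fold change was 0.51. When 1 library at a time was omitted, 13, 9, 9 and 9 were called higher. Beside Klrk1, Ccl5, Klrg1 and Eomes, they included the granzyme Gzmk, from 18.8 and 19.0 to 67.5 and 72.7 CPM (log2 fold change 1.89 with SE 0.18, adjusted p 0.00153 in edgeR), and the death ligand Fasl (called except without WT CD4 replicate 2), from 45.5 and 40.8 to 83.4 and 142 CPM (log2 fold change 1.39 with SE 0.24, adjusted p 0.0114 in edgeR). Serpinb9, which protects killer cells from their own granzyme B, rose from 342 and 301 to 783 and 795 CPM (log2 fold change 1.30 with SE 0.11, adjusted p 0.00114 in edgeR), and the related Serpinb6b from 493 and 402 to 1071 and 1076 CPM. The granzymes did not move as one. Gzmb was called lower, at 533 and 469 CPM in WT and 331 and 308 CPM in STAT3KO libraries (a log2 fold change of -0.65 with SE 0.12, adjusted p 0.0142 in edgeR), although not without either STAT3KO CD4 library. The pore former Prf1 (51.0 and 45.4 against 48.8 and 52.7 CPM) and the Th1 cytokine Ifng (374 and 235 against 411 and 269.8 CPM) were not called. NK-type receptors had 4 of 11 called higher (Klrk1, Klrg1, Klrd1 and Klrc2) and 2 lower (Crtam and Cd160), and with 1 library left out 3, 2, 1 and 2 were called higher and 1, 0, 0 and 1 lower. Klrc2 and Cd160 were called in none of these fits. The share called among NK-type receptors was 54.5%. Of 8 chemokines Ccl5 alone was called (12.5%, near the 11.6% over all genes), while all 8 had log2 fold changes above 0, with a median of 0.93. Of 12 genes of the NADPH oxidase and reactive oxygen, 3 were called higher and 0 lower (25% called, against 11.6% over all genes). Cybb was joined by Ncf1, a cytosolic subunit of the same enzyme, which rose from 9.98 and 7.94 to 30.8 and 31.4 CPM (log2 fold change 1.80 with SE 0.16, adjusted p 0.00114 in edgeR), and by catalase (Cat, log2 fold change 0.48). The membrane subunit Cyba had 114 and 90.4 CPM in WT and 127 and 107 CPM in STAT3KO libraries and was not called. Annotated exons of Ncf1 share 11.1% of its exon bases with Gtf2ird2 on the opposite strand.

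Inhibitory receptors split between the directions, and 31.6% of the checkpoint and exhaustion genes tested were called, against 11.6% over all genes. Of 19 checkpoint and exhaustion genes, 4 were called lower and 2 higher (median log2 fold change -0.01), and 3, 3, 2 and 2 were called lower with 1 library left out. Lag3 fell from 287 and 271 to 116 and 121 CPM (log2 fold change -1.23 with SE 0.13, adjusted p 0.00180 in edgeR) and Tigit from 447 and 456 to 259 and 250.4 CPM (log2 fold change -0.82 with SE 0.10, adjusted p 0.00360 in edgeR). Btla and Cd160 were lower as well. Cd226, the activating counterpart that competes with Tigit for the same ligands, rose from 97.0 and 96.7 to 229 and 219.7 CPM (log2 fold change 1.21 with SE 0.11, adjusted p 0.00120 in edgeR). Entpd1 (CD39), which degrades extracellular ATP, rose from 31.0 and 19.8 to 75.9 and 81.5 CPM (log2 fold change 1.63 with SE 0.20, adjusted p 0.00347 in edgeR), and Havcr2 (TIM-3) was also higher (0.78), although in the fits without 1 library it was called in that without WT CD4 replicate 1 alone. Ctla4 was not called, with 1433 and 1788 CPM in WT and 1124 and 1628 CPM in STAT3KO libraries. In the costimulatory and TNF-family list the share called was 29.2%. Of 24 costimulatory and TNF-family genes, 4 were called higher (Fasl, Cd226, Slamf1 and Tnfrsf1b) and 3 lower (Icos, Tnfrsf25 and Tnfrsf14), and with 1 library left out 3, 1, 2 and 2 were called higher and 3, 1, 0 and 0 lower.

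Among trafficking receptors and integrins, 7 of 33 were called higher and 2 lower, with a median log2 fold change of 0.28. The share called was 27.3%, and 38.9% in the S100, annexin and galectin list below, against 11.6% over all genes. The higher ones were the integrin chains Itga4, Itgb1, Itgb3 and Itga2 and the chemokine receptors Ccr9, Ccr10 and Cxcr6, and the lower ones Cxcr5 and Gcnt1, a glycosyltransferase that modifies selectin ligands. Ccr9, which guides T cells to the small intestine, rose from 11.9 and 9.21 to 29.6 and 35.4 CPM (log2 fold change 1.62 with SE 0.23, adjusted p 0.00503 in edgeR). A transcript of unknown function is annotated on the opposite strand over 18.8% of the exon bases of Ccr9. Cxcr6, a receptor of liver-homing T cells, rose from 374 and 321 to 555 and 532 CPM (log2 fold change 0.65 with SE 0.11, adjusted p 0.0110 in edgeR). The receptors S1pr1 (572 and 615 against 539 and 646 CPM), needed to leave lymphoid tissue, and Cxcr3 (239 and 295 against 236 and 267 CPM) were not called. When each library was omitted in turn, 6, 3, 3 and 4 genes were called higher. Itga4, Itgb1, Ccr9, Cxcr5 and Gcnt1 were called in each of these fits, Cxcr6 in that without WT CD4 replicate 1 alone, Ccr10 and Itga2 in none, and Itgb3 in those without WT CD4 replicate 1 or STAT3KO CD4 replicate 2. S100, annexin and galectin genes, which are typical of effector and memory cells, had 7 of 18 called higher and 0 lower (median log2 fold change 0.38), S100a10 and Ahnak among them, and 4, 3, 3 and 3 were called with 1 library left out.

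The mitosis list had the highest share of called members of the 32 lists examined (92.9%, against 11.6% over all genes). Of its 56 genes tested, 52 were called higher and 0 lower, the median log2 fold change was 1.20, and no member had a fold change below 0 (lowest 0.21, highest 1.59). Without 1 library in turn, 51, 35, 29 and 35 were called higher. Hmmr, a spindle protein, led by fold, from 33.7 and 18.6 to 81.7 and 75.1 CPM (log2 fold change 1.59 with SE 0.31, adjusted p 0.0175 in edgeR), followed by Nuf2, a kinetochore subunit, from 27.1 and 22.6 to 70.6 and 72.6 CPM (log2 fold change 1.53 with SE 0.19, adjusted p 0.00325 in edgeR). The checkpoint kinase Ttk rose from 15.2 and 10.2 to 37.6 and 35.1 CPM (log2 fold change 1.52 with SE 0.21, adjusted p 0.00508 in edgeR). Mki67 (Ki-67), the usual marker of dividing cells, had 739 and 503 CPM in WT and 1454 and 1223 CPM in STAT3KO libraries (a log2 fold change of 1.11 with SE 0.21, adjusted p 0.0168 in edgeR). In Mki67 the WT libraries differed by a factor that the STAT3KO libraries did not reach. Its groups did not overlap, as in every called gene. Among the DNA replication genes tested, 63.8% were called. Of 47 genes of DNA replication, 30 were called higher and 0 lower (median log2 fold change 0.78), and 27, 15, 14 and 12 were called with 1 library left out. Cdc45, part of the replicative helicase, rose from 18.3 and 15.4 to 40.9 and 38.4 CPM (log2 fold change 1.24 with SE 0.16, adjusted p 0.00392 in edgeR), and Rrm2, which makes deoxyribonucleotides, from 57.9 and 43.6 to 111 and 108 CPM (log2 fold change 1.11 with SE 0.16, adjusted p 0.00593 in edgeR). The single-strand binding protein Rpa1 was not called (316 and 297 against 277 and 293 CPM). Of 29 genes of the G1 machinery (cyclins and their kinases, CDK inhibitors, E2F and Rb genes), 31% were called, against 11.6% of all genes. Of these, 7 were called higher, with the cyclin Ccnd2 (0.88), the E2F factors E2f1 (0.93) and E2f7 (0.91) and the CDK inhibitor Cdkn2c (0.86) among them, and 2 were called lower, Rb1 (-0.78) and the CDK inhibitor Cdkn2d (-0.77). In the fits that each omitted 1 library, the G1 counts were 6, 1, 0 and 0 higher and 1, 0, 0 and 0 lower. The calls of Hmmr and Mki67 held without WT CD4 replicate 1 and not without the other libraries, while Nuf2, Ttk, Cdc45 and Rrm2 were called in each of these fits.

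Of 45 interferon-stimulated genes, 21 were called higher, 0 lower and 24 were not called, with a median log2 fold change of 0.60, and 12, 8, 9 and 7 were called with 1 library left out. The share called was 46.7%, and 63% in the interferon-γ list below, against 11.6% over all genes. Ifit1bl1, a member of the IFIT family of RNA-binding proteins, rose from 14.6 and 13.4 to 43.5 and 50.5 CPM (log2 fold change 1.75 with SE 0.20, adjusted p 0.00269 in edgeR). The Ifi200-family genes Ifi203 and Ifi213 were also called, Ifi203 from 225 and 189 to 476 and 498 CPM (log2 fold change 1.24 with SE 0.12, adjusted p 0.00153 in edgeR) and Ifi213 from 73.1 and 73.2 to 165 and 179 CPM (log2 fold change 1.23 with SE 0.12, adjusted p 0.00159 in edgeR). The classical antiviral genes Mx1 (35.7 and 33.4 against 32.3 and 36.7 CPM) and Irf7 (77.7 and 56.8 against 86.2 and 88.0 CPM) were not called. Of 27 interferon-γ GTPases and antigen-processing genes, 17 were called higher and 0 lower (median log2 fold change 0.67), and 10, 11, 10 and 6 were called with 1 library left out. The guanylate-binding proteins, which attack vacuoles of intracellular pathogens, included Gbp7, from 196 and 174 to 491 and 496 CPM (log2 fold change 1.42 with SE 0.11, adjusted p 0.000853 in edgeR), and Gbp3, from 76.7 and 74.0 to 177 and 202 CPM (log2 fold change 1.33 with SE 0.11, adjusted p 0.00101 in edgeR). Gbp, Ifi200, Tgtp and IFIT genes are families of close copies that may exchange reads, and the single members are uncertain to that extent. The class I molecules H2-K1 (2158 and 2263 against 2486 and 2600 CPM) and H2-D1 (692 and 614 against 731 and 653 CPM) were not called, while the transporter Tap1 (0.45) and the immunoproteasome subunits Psmb9 (0.67) and Psmb10 (0.47) were higher.

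Of 50 genes of ribosome biogenesis and Myc targets, 15 were called lower, 0 higher and 35 were not called, with a median log2 fold change of -0.34, and 8, 3, 2 and 1 were called with 1 library left out. Ppan, a factor of large-subunit assembly and the member called in each of these fits, had 46.4 and 44.6 CPM in WT and 25.9 and 26.8 CPM in STAT3KO libraries (a log2 fold change of -0.79 with SE 0.10, adjusted p 0.00402 in edgeR). Rrp1b, called except without STAT3KO CD4 replicate 2, fell from 75.0 and 65.8 to 37.3 and 33.0 CPM (adjusted p 0.00544 in edgeR). Myc itself had 167 and 65.3 CPM in WT and 96.0 and 42.4 CPM in STAT3KO libraries, groups that overlapped, and was not called. Of this list 30% was called, against 11.6% over all genes. Of 24 glycolysis genes, 3 were called lower (Aldoc, Ldha and Pkm) and 0 higher (median log2 fold change -0.25), a share of 12.5% near the background of 11.6%, and 2, 2, 0 and 1 were called with 1 library left out. Ldha, which makes lactate, had 550.1 and 603 CPM in WT and 378 and 407 CPM in STAT3KO libraries (a log2 fold change of -0.55 with SE 0.10, adjusted p 0.0147 in edgeR), and the glucose transporter Slc2a1 was not called at 65.1 and 60.2 CPM in WT and 64.8 and 62.7 CPM in STAT3KO libraries. In the glutathione and thioredoxin list, 3 of 30 genes were called lower, among them glutathione reductase (Gsr, from 99.5 and 106 to 73.9 and 69.1 CPM), and Ggct was called higher, while 3, 0, 0 and 0 were called lower with 1 library left out. In all, 4 of these 30 genes were called (13.3%), a share near the 11.6% over all genes. The rate-limiting subunit of glutathione synthesis, Gclc, had 73.3 and 96.4 CPM in WT and 66.9 and 62.9 CPM in STAT3KO libraries and was not called. Fatty acid genes had 1 of 27 called in each direction (7.41% called) and cholesterol genes 2 of 23 called higher (8.7%), both shares below the 11.6% over all genes. Beside Csgalnact1, the chondroitin sulfate list had Chst11, a sulfotransferase, called lower, from 57.6 and 37.6 to 12.2 and 12.8 CPM (log2 fold change -1.93 with SE 0.22, adjusted p 0.00241 in edgeR), and B3gat3 called higher, of 15 genes tested (20% called). The calls of Csgalnact1 and Chst11 held in each of the fits without 1 library, and those of Ldha, Gsr and B3gat3 were lost without WT CD4 replicate 2 or either STAT3KO CD4 library.

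Of 30 genes of antigen receptor signalling, 2 were called (6.67%, against 11.6% of all genes tested; Themis and Sla2, both higher), with 0 called lower and a median log2 fold change of -0.05. Among 23 genes of the BCL2 family and death pathways, 3 were called lower and 4 higher (30.4% called, with 33.3% in the list of secreted cytokines below). The death receptor Fas had 69.3 and 102 CPM in WT and 23.2 and 29.3 CPM in STAT3KO libraries (a log2 fold change of -1.70 with SE 0.25, adjusted p 0.00628 in edgeR), a call lost without STAT3KO CD4 replicate 1, whereas its ligand Fasl rose (above). The survival gene Bcl2 had 290.2 and 294 CPM in WT and 196 and 186 CPM in STAT3KO libraries (a log2 fold change of -0.61 with SE 0.12, adjusted p 0.0161 in edgeR), and Casp1, an inflammatory caspase, was among the higher ones (0.70). When 1 library at a time was omitted, 2, 1, 2 and 1 of these genes were called higher and 3, 1, 0 and 1 lower. The call of Bcl2 held without WT CD4 replicate 1 and not without the other libraries. Of 21 secreted cytokines and growth factors, 6 were called lower (Il17a, Il22, Esm1, Il4, Lif and Il21) and Il10 higher, and with 1 library left out 5, 5, 3 and 2 were called lower. Of the antigen receptor genes, 1, 0, 0 and 0 were called with 1 library left out.

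Some genes were nearly absent in 1 genotype. Of the 1444 called genes, 27 had at most 3 counts in each library of 1 genotype, 21 of them in STAT3KO and 6 in WT libraries. Moxd1, a monooxygenase-type gene, had 28 and 41 counts in WT and 0 in both STAT3KO libraries, at least 23.4-fold lower against a limit of 3 counts over the group. E530011L22Rik had 16 and 17 counts in WT and 0 in both STAT3KO libraries, at least 11.2-fold lower, and shares 41.3% of its exon bases with Nktr on the opposite strand. Pipox, an oxidase of pipecolic acid, had 37 and 42 counts in WT and 1 and 2 in STAT3KO libraries (ratio 26.8, 95% counting interval 8.83 to 133). In the other direction, Macc1, a regulator known from colon cancer, had 2 and 1 counts in WT and 58 and 60 in STAT3KO libraries (ratio 38.7, interval 12.9 to 190). The calls of Moxd1 and Macc1 held without WT CD4 replicate 1 and not without the other libraries, that of Pipox held without each library and that of E530011L22Rik in none of these fits. These genes were chosen after their values were seen.

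Genes near Stat3 on chromosome 11, which are inherited with the altered allele, were counted apart. Within 1, 5 and 10 Mb of Stat3 the share of tested genes called was 12.2% of 49, 13.8% of 159 and 13.4% of 239, close to the 11.6% over all genes. The 6 genes called within 1 Mb were Stat5a, lower, and Brca1, Ccr10, Dhx58, Psmc3ip and Rdm1, higher. Of these, Brca1, a DNA repair gene that follows the cell cycle, had 31.8 and 28.4 CPM in WT and 55.3 and 52.6 CPM in STAT3KO libraries (a log2 fold change of 0.84 with SE 0.11, adjusted p 0.00411 in edgeR). The calls of Dhx58, Psmc3ip and Ccr10 held in none of the fits without 1 library, that of Rdm1 in that without WT CD4 replicate 1 alone, and those of Stat5a and Brca1 in all of them. Of the genes named above, Ccr9, E530011L22Rik, Foxp3, Gbp6, Gbp7, Hopx, Ifng, Itgam, Lef1, Ncf1, Nrn1, Pim1, Pkm, Psmc3ip and Sla2 share at least 10% of their exon bases with another annotated gene, so that their counts are uncertain where reads of both could not be told apart.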

How the data were processed

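RNA was sequenced from sorted donor CD4 T cells of recipient spleens on day 6. Per the labels and the study's methods, the authors aligned reads to the mouse genome (GRCm38, mm10), counted them per RefSeq gene and deposited raw counts per gene with RPKM values, which divide the counts by exon length and library size. Whether strand was used in counting, and which of the library kits named was used, is not given in the sources used here.

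The deposited counts of all 8 libraries were fitted in edgeR 4.0.16 (R 4.3.3), with 1 mean per group, genes kept by filterByExpr at a minimum count of 10, TMM scaling and the two-sided quasi-likelihood test. Genes were called at a Benjamini-Hochberg adjusted p under 0.05 over all 12428 genes tested. The test gives no standard error, so each SE is the absolute log2 fold change divided by the square root of its F statistic. The CD8 libraries entered the filter, the scaling and the estimate of the spread, which CD4 libraries were thus assumed to share. The rule for named genes took Stat3, the 15 highest and 15 lowest log2 fold changes among called genes whose groups did not overlap and whose log2 CPM averaged 3 or more, the 10 largest rises and falls in CPM, and members of 32 gene lists. Members and lists were chosen with earlier results of these data known. On simulated counts, 72% of genes changed 2-fold and 91% of genes changed 4-fold were recovered, and 9 unchanged genes were called. The simulated libraries were independent, with a spread set by abundance alone. Joint deviations of same-numbered libraries were not simulated, so recovery in the real data may differ. A count of 0 allows up to 3 counts, between 0.137 and 0.149 CPM in the CD4 libraries. Replicates within each CD4 group differed by more than counting noise (chi-square per degree of freedom 69.5 and 30.9). Promoter sequences are from RefSeq (GRCm38.p6), and exon overlaps from GENCODE annotation of the same build. Alternatives were DESeq2 1.42.0, the edgeR likelihood-ratio test, other scalings, no filter, the CD4 libraries alone, the replicate number as a term, limma 3.58.1 on log2(RPKM + 1) and log2(RPKM + 0.1), and each library left out. Values of 6 genes that the rule or the lists would name are not reported here, although the genes remain in all counts.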

Additional observations from a re-analysis of the deposited data

Results flagged for a closer look

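In 6 genes named above, the genotypes did not overlap in one direction in CD4 T cells and did not overlap in the other direction in CD8 T cells. The log2 fold change in CD8 T cells minus that in CD4 T cells was 1.20 for Rb1 and 0.79 for Actn1, which were lower in STAT3KO CD4 T cells. The same difference was -1.05 for Havcr2, -0.81 for Tnfrsf1b, -0.72 for Il15ra and -0.46 for Thy1, which were higher in STAT3KO CD4 T cells. None of these differences passed the edgeR quasi-likelihood interaction test, with adjusted p values of 0.268 for Rb1, 0.126 for Actn1, 0.291 for Havcr2, 0.240 for Tnfrsf1b, 0.261 for Il15ra and 0.312 for Thy1. In all, 35 of the 1444 genes called in CD4 T cells showed such a pattern (22 called higher and 13 called lower). It requires groups without overlap in CD4 T cells, which every called gene had. Of the 12428 genes tested, 6653 had such groups and 347 showed the pattern. Groups of 2 libraries are too small for a search for single outlying libraries.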

How the results depend on the processing

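Stat3 was called lower under every alternative, with a log2 fold change between -1.66 and -1.62 (edgeR, DESeq2 and limma adjusted p values of 0.0123 or less). No gene called in CD4 T cells changed direction under any alternative. This was nearly fixed in advance, since the groups of every called gene did not overlap. The 1444 calls became 995 with the CD4 libraries alone (510 higher) and between 1411 and 1907 with other tools, scalings, units or no filter, and between 1283 and 1435 of the original calls were among the latter. With 1 CD4 library left out, the counts lay between 412 and 1116 (241 to 643 higher, 171 to 473 lower), and of the 158 named genes that were called, 72 were called in each of these fits. The replicate number as a replicate block gave 3747 calls (2046 higher, 1701 lower), which held all 1444. Same-numbered libraries deviated together (r across genes 0.61 for the CD4 groups and between 0.44 and 0.712 over the 6 pairs of groups), and the library serial numbers in the titles run together within a replicate number, but the labels do not say that a number marks a shared batch. The test of CD8 against CD4 effects called 0 genes in the reported fit and 188 with DESeq2, 137 with the likelihood-ratio test, 44 without a filter, 403 with the replicate block and 13 on log2(RPKM + 1), the last added after seeing the data. It could not be run on the CD4 libraries alone. Genes not called crossed 0 in some fits. Slc2a1 was at -0.00693 by library totals, -0.00168 without a filter, -0.00126 on log2(RPKM + 1) and -0.00129 on log2(RPKM + 0.1), and under the replicate block Mx1 was at 0.00438 and Pdcd1 at 0.00119. With 1 library left out, the log2 fold change ranged from -0.83 to 0.00759 for Ahr, -0.258 to 0.0665 for Cxcr3, -0.0264 to 0.161 for H2-D1, -0.20 to 0.51 for Ifng, -0.0980 to 0.0624 for Mx1, -1.48 to 0.0574 for Myc, -0.27 to 0.26 for Pdcd1, -0.0160 to 0.133 for Prf1, -0.141 to 0.0954 for S1pr1 and -0.0392 to 0.0566 for Slc2a1. Gclc, Il6st, Irf7, Myc, Rora and Tbx21 were called under the replicate block, Rora also by DESeq2 and Irf7 also without WT CD4 replicate 1. Low counts limit the Th17 cytokines, and where 1 library was left out, the lone library was assumed to vary like the other groups.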
